A study of Caenorhabditis elegans with 6 samples.

Results

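aps-3 (WBGene00000165) encodes the small, or sigma, subunit of the AP-3 adaptor complex, and it was examined through the adenosine-to-inosine (A-to-I) editing of its mRNA and through its read counts in the C. elegans germline. Its editing sites were chosen by their calls: a site was kept when the confidence given to it was at least 0.75 in all 3 wild-type replicates and when the adr-2(-) list did not hold it at any confidence. aps-3 had 49 such sites of 1012 in 71 genes (4.84%), which placed it 5th among these genes by number of sites, and a further 19 positions passed in all 3 wild-type replicates but were removed because they were also listed for adr-2(-). Because the calls define the sites, their number and levels are descriptions, with no test between genotypes.

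RNA came from germlines dissected from synchronized young adult hermaphrodites kept at 20°C, in 3 replicates of the wild-type strain N2 and 3 of strain BB20, which carries the deletion allele adr-2(ok735) and is written adr-2(-). No treatment is labelled, and the groups differ in labelled genotype alone. Libraries were made from poly(A)-selected RNA with a stranded kit, and the site lists give, at each position where a read carried the edited base, the number of reads (coverage) and the edited share. Each wild-type replicate had a list of its own, whereas adr-2(-) had 1 merged list and hence no replicate spread for its editing values.

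In A-to-I editing, adenosine deaminases that act on RNA (ADARs) convert adenosines within double-stranded RNA into inosines, which sequencing reads as guanosine. ADR-2 is the active editing enzyme of C. elegans, while its relative ADR-1 lacks deaminase activity and modulates ADR-2. AP-3 is built from a pair of large subunits (encoded by apb-3 and apd-3), a medium subunit (apm-3) and the small subunit (aps-3), and it sorts membrane cargo toward lysosomes and related organelles, among them the gut granules of the worm intestine.

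The 6 libraries held between 33658937 and 96397215 reads assigned to genes, and wild-type replicate 2 was the deepest. The targeted gene, adr-2, was at 3020, 2822 and 2852 normalized counts across the wild-type libraries, against 29.2, 61.0 and 35.6 for adr-2(-), so the libraries matched their labels. All 10 germline markers were detected, with a summed normalized count of 493539 to 517231 (wild-type) against 448066 to 511682 (adr-2(-)). The library adr-2(-) replicate 1 stood apart in markers of other tissues: its summed level was 7.82 times the median of the other libraries for 4 muscle markers, 5.22 times for 4 intestine markers, 5.41 times for 3 hypodermis markers, 4.91 times for 5 sperm markers and 4.02 times for 3 gonadal sheath markers, whereas the 5 neuron markers were at 0.885 times. For the sperm markers the excess was less distinct: the sum was 246 in this library, but it reached 188 in a wild-type library. The gene myo-3 was in both the muscle and the gonadal sheath list, so these ratios are not separate evidence. The part of these markers in the expression results was not tested. The fold changes of the AP-3 subunits, the trafficking genes and the neighbouring genes are given below with and without this library.

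aps-3 lies on the minus strand of chromosome I, from 1154514 to 1156020 in WBcel235 coordinates. Its first exon runs from 1155748 to 1156020 and its second from 1154514 to 1155707. The stop codon at 1155402 to 1155404 is followed by an annotated 3′ untranslated region (UTR) of 888 nt, from 1154514 to 1155401, and positions below are also given as nucleotides (nt) after the stop codon. The nearest gene on the same strand is the ncRNA gene Y48G8AL.18, 67 nt upstream, and the protein-coding gene znf-236, also on that strand, lies 125 nt downstream.

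All 49 kept sites lay in the 3′ UTR, from 67 to 805 nt after the stop codon. They formed a proximal group of 30 sites between 67 and 356 nt and a distal group of 19 sites between 556 and 805 nt, separated by a gap of 200 nt that held none. Within the groups the sites were dense, with a median spacing of 7.5 nt, and each of the 49 had another within 50 nt. By contrast, no coding position reached the confidence minimum in any list. The lists held 2, 12 and 15 coding positions for wild-type replicates 1 to 3 and 20 for adr-2(-), with median edited shares of 0.189%, 0.167%, 0.206% and 0.118%. Over all listed 3′ UTR positions, with no confidence minimum, the medians were 14.18%, 5.86% and 13.96% for wild-type replicates 1 to 3. For adr-2(-) the 3′ UTR median was 0.251%. Listed coding shares were thus far below listed 3′ UTR shares in wild-type, whereas the adr-2(-) medians lay much closer together. Only positions with an edited read are listed, so these medians also depend on depth, and their differences were not tested.

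**Figure D1:**
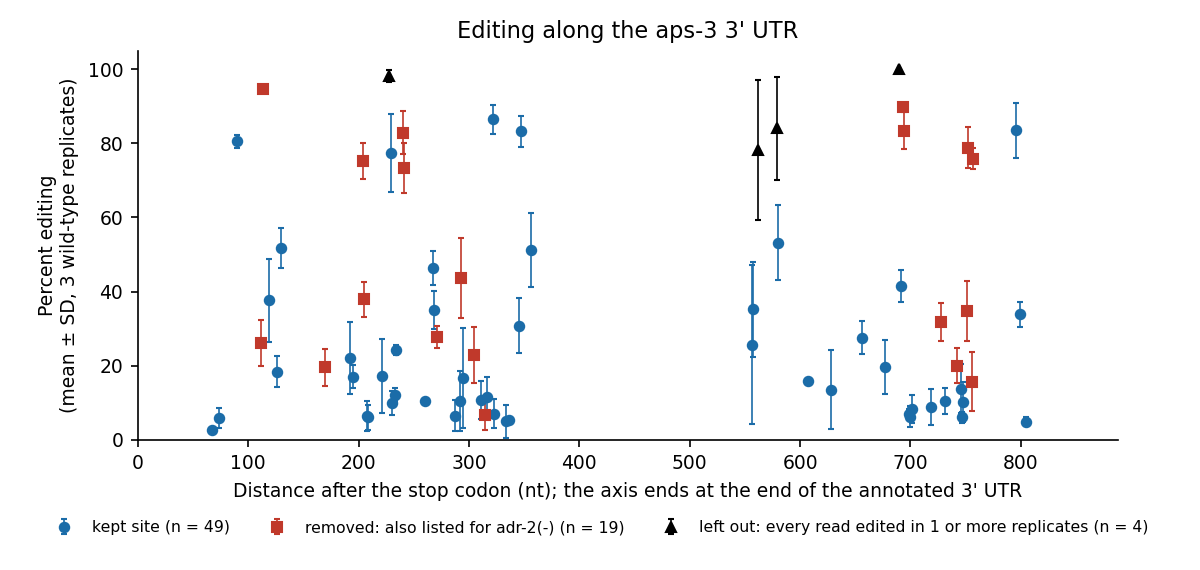
Percent editing (vertical axis, mean ± SD of the 3 wild-type replicates) against the distance from the stop codon in nt (horizontal axis) for the 49 kept sites (circles), the 19 positions removed because adr-2(-) also listed them (squares) and the 4 positions left out because every read was edited in 1 or more replicates (triangles). Sites fall into a proximal and a distal group with an empty stretch between them, and 8 of the 19 removed positions lie at 70% or higher against 5 of the 49 kept sites.

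Percent editing is the share of reads at a position that carried the edited base. Averaged over the 49 kept sites, the wild-type replicates 1 to 3 gave 24.6%, 23.9% and 26.9% (25.1% ± 1.55, SD, n = 3). The replicates were therefore close to each other in this mean over kept sites. It covers only sites that passed in all 3 replicates and leaves out the removed and the fully edited positions. The proximal group was edited at 27.1%, 25.1% and 28.5% (26.9% ± 1.69) and the distal group at 20.8%, 22.0% and 24.4% (22.4% ± 1.80), and the proximal mean was above the distal mean in each of the 3 replicates. Medians over sites were 15.2%, 13.5% and 17.5% for the proximal group and 16.2%, 11.9% and 14.3% for the distal group. By median the order was thus reversed in replicate 1. The order also covers kept sites alone. Highly edited removed positions lay in both stretches, such as 1154709 (mean 89.9%) in the distal and 1155289 (94.7%) in the proximal. Whether the order holds with the removed and fully edited positions included was not tested. Site means spread widely, from 2.75% to 86.5% with a median of 15.8% and quartiles of 8.26% and 35.0%. Low levels were the rule: 15 sites were edited in fewer than 10% of reads, 8 in at least 50% and 5 in at least 70%. Medians of 181, 417 and 164 reads per site lay behind these shares in the 3 replicates, with the lowest at 31, 86 and 8 reads.

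The 5 most edited kept sites were spread over both groups. Position 1155080, 322 nt after the stop codon, was edited in 89.3%, 82.1% and 88.1% of reads. Position 1154606, at 796 nt, had 75%, 87.4% and 88.1%. Position 1155055, at 347 nt, had 80.0%, 88.0% and 81.8%. At these 3 sites at least 3 of every 4 reads carried the edited base in every replicate. Position 1155312, at 90 nt, was edited in 81.3%, 81.8% and 78.6% of reads, and position 1155173, at 229 nt, in 71.2%, 71.5% and 89.6%. The last of these had the widest spread of the 5, with an SD of 10.5 percentage points.

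The 5 least edited kept sites were each edited in no more than 10.1% of reads in any replicate. Position 1155335, the site nearest to the stop codon at 67 nt, had 3.27%, 2.84% and 2.14%, and position 1154597, the farthest at 805 nt, had 3.45%, 5.86% and 5.49%. The outermost kept site at each end was thus weakly edited, but highly edited sites lay close by. These were position 1155312 at 90 nt and position 1154606 at 796 nt, both among the 5 most edited. Position 1155068 was edited in 10.1%, 2.39% and 2.40% of reads, position 1155066 in 5.21%, 5.50% and 5.13%, and position 1155328 in 9.0%, 3.87% and 4.95%. Position 1155068 was also the kept site closest to the confidence minimum, with a lowest confidence of 0.872. It was followed by 1155335 at 0.914 and 1155115 at 0.917. The positions closest to the minimum on its other side had 2 passing replicates and 1 confidence of 0.706 (1155067), 0.633 (1154736) and 0.623 (1154644), and in the replicate that missed the minimum (1 for the first of them, 3 for the others) they were edited in 1.83%, 1.38% and 1.52% of reads.

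Directly neighbouring adenosines could differ greatly in level. Among the 68 positions that passed in all 3 wild-type replicates, kept or removed, 18 pairs were adjacent. Position 1155080, at a mean of 86.5%, was followed by 1155079 at 7.09%, and position 1155173, at 77.4%, by 1155172 at 9.88%. The opposite order was also seen, with 1155290 at 26.1% before 1155289 at 94.7% and 1154646 at 15.7% before 1154645 at 75.9%. The 3′ member of the pair was higher in all 3 replicates in 6 pairs and the 5′ member in 7, and 5 pairs were mixed. Neighbouring positions are mostly read in the same sequencing reads, so these pairs are not independent measurements.

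The 19 removed positions were more highly edited in wild-type than the kept ones, at 48.1%, 50.9% and 49.5% over the 3 replicates (49.5% ± 1.36, n = 3). Their site means ran from 6.61% to 94.7% with a median of 37.9%, and 8 of them reached 70%. The most edited was position 1155289, at 113 nt, with 95.1%, 95.1% and 94.0%, and position 1154709, at 693 nt, had 90.5%, 89.2% and 90.2%. Position 1154708 next to it had 83.4%, 78.4% and 88.4%, and position 1155162, at 240 nt, had 88.1%, 76.6% and 83.8%. In replicates 1 to 3 these 4 positions were thus edited in more than 3 of 4 reads.

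Their evidence in adr-2(-) was thin. In the merged adr-2(-) list, 16 of the 19 had 1 edited read and 3 had 2, at depths of 44 to 1308 reads, and their shares were 0.0765% to 4.55% with a median of 0.543%. Only position 1155232 reached the confidence minimum there, with 2 edited of 44 reads (4.55%, exact 95% interval 0.555% to 15.5%), and it was edited in 21.1%, 23.6% and 14% of wild-type reads. Position 1155289 had 1 edited of 55 adr-2(-) reads (1.82%, interval 0.0460% to 9.72%), and position 1154709 had 2 of 1308 (0.153%, interval 0.0185% to 0.551%). Intervals cover counting error only, since reads made by PCR are not independent molecules. Over all genes 86 positions were removed in this way, and aps-3 held 22.1% of them, the most of any gene, followed by gmn-1 with 15 and eif-2alpha with 10. Together, kept and removed positions of aps-3 numbered 68, of which 27.9% were removed. Over all genes, 86 positions were removed and 1012 kept. The removed share was 28.6% of 7 positions for trm-2A and 23.1% of 65 for gmn-1, so a share of this size was not particular to aps-3.

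Position 1154712, 690 nt after the stop codon, was edited in every read of every wild-type replicate: 241 of 241, 573 of 573 and 224 of 224. The 1038 pooled reads put the share at 99.6% or higher (exact 95% interval). In adr-2(-), 2 of 1309 reads carried the edited base (0.153%, interval 0.0185% to 0.551%). The position was not among the kept sites, because the confidence is 0 wherever all reads are edited: this held for all 588, 381 and 444 fully edited positions of the wild-type lists and all 7 of the adr-2(-) list. Across the series, 12 positions were fully edited in all 3 wild-type replicates, and 1154712 was the only one of them with at least 20 reads in each and the only one that the adr-2(-) list held. Genomic DNA of the strains was not analysed here.

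Reads thinned out between the proximal and distal groups. In the stretch from 399 to 544 nt after the stop codon, 13 positions were listed in wild-type, none with more than 10, 22 or 8 reads in replicates 1 to 3. Of these 13 positions, 11 reached the confidence minimum in at least 1 replicate, 4 were fully edited in at least 1, and none was kept. The lists give a depth only where an edited read was seen. The adr-2(-) list held no position there, so its depth over this stretch is unknown. No wild-type list held a position between 416 and 524 nt, so wild-type depth there is unknown too. The gap in the kept sites thus included listed positions of low depth. It also held positions from 363 to 382 nt with 46 reads in replicate 1 and 144 to 146 in replicate 2, where listed. How far depth set the gap was not tested.

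**Figure D2:**
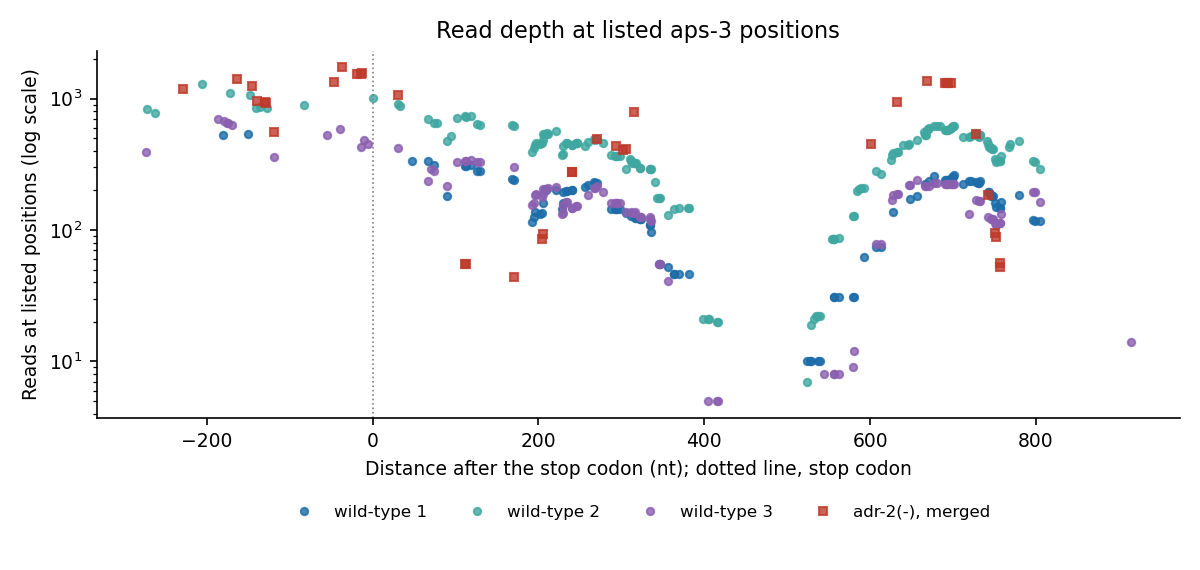
Reads at each listed aps-3 position (vertical axis, log scale) against the distance from the stop codon in nt (horizontal axis, dotted line at the stop codon) for the 3 wild-type replicates (circles) and the merged adr-2(-) list (squares). Wild-type depth at listed positions falls to at most 22 reads between 399 and 544 nt, and within the 3′ UTR adr-2(-) depth ranges from 44 reads at 170 nt to 1352 reads at 669 nt.

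The depth of adr-2(-) ran differently along the 3′ UTR from that of wild-type. At position 1155289 the merged adr-2(-) list had 55 reads against 306, 728 and 333 in wild-type, a ratio to the summed wild-type depth of 0.0402, and at position 1154645 it had 56 against 146, 336 and 113, a ratio of 0.0941. At position 1154709 it had 1308 against 241, 573 and 224, a ratio of 1.26. For scale, the adr-2(-) libraries together had 0.557 times the reads on genes of the wild-type libraries. These ratios rest on 1 merged list with no replicates, and their cause was not tested.

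The site-by-site pattern was shared between replicates, with some sites that differed. Across the 49 kept sites, percent editing correlated between replicates 1 and 2 with a Pearson r of 0.947 (Spearman rho 0.868), between 1 and 3 with 0.895 (0.705) and between 2 and 3 with 0.942 (0.854), as a description across sites, which share libraries and reads and are not independent. The median absolute difference per site was 4.88, 6.72 and 5.84 percentage points for these pairs. The widest single difference was 40.3 points, at position 1154846 (556 nt), where replicate 3 had 8 reads.

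Fisher's exact test (two-sided, Benjamini-Hochberg adjustment over all 1012 kept sites) was used to compare the reads of each pair of replicates. Between replicates 1 and 2, 12 of the 49 sites differed at an adjusted p of at most 0.05 (24.5%, against 15.4% of all kept sites). Between replicates 1 and 3, 14 differed (28.6%, against 15.3%), and between replicates 2 and 3, 7 differed (14.3%, against 9.98%). In all, 23 sites differed in at least 1 pair and 26 in none. The test compares 2 libraries and takes each read as independent, and whether the shares for aps-3 exceed those of all sites was not tested.

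Among the sites that differed, the 5 largest differences were all between replicates 1 and 3. Position 1155107, at 295 nt, was edited in 31.7%, 12.9% and 5.62% of reads in replicates 1 to 3 (adjusted p = 4.3e-07 in Fisher's exact test for replicates 1 and 3). Position 1154774, at 628 nt, had 25%, 11.9% and 3.76% (adjusted p = 2.5e-06), and position 1155181, at 221 nt, had 26.7%, 18.3% and 6.64% (adjusted p = 3.6e-06). At these 3 sites replicate 1 was highest. The direction was reversed at position 1155283, in the proximal group, with 29.4%, 33.0% and 50.4% (adjusted p = 5.9e-06), and at position 1155210, at 192 nt, with 12.2%, 22.5% and 31.6% (adjusted p = 0.0047). Of the 14 sites that differed between replicates 1 and 3, 5 were higher in replicate 1 and 9 in replicate 3, so no replicate was higher throughout.

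**Figure D3:**
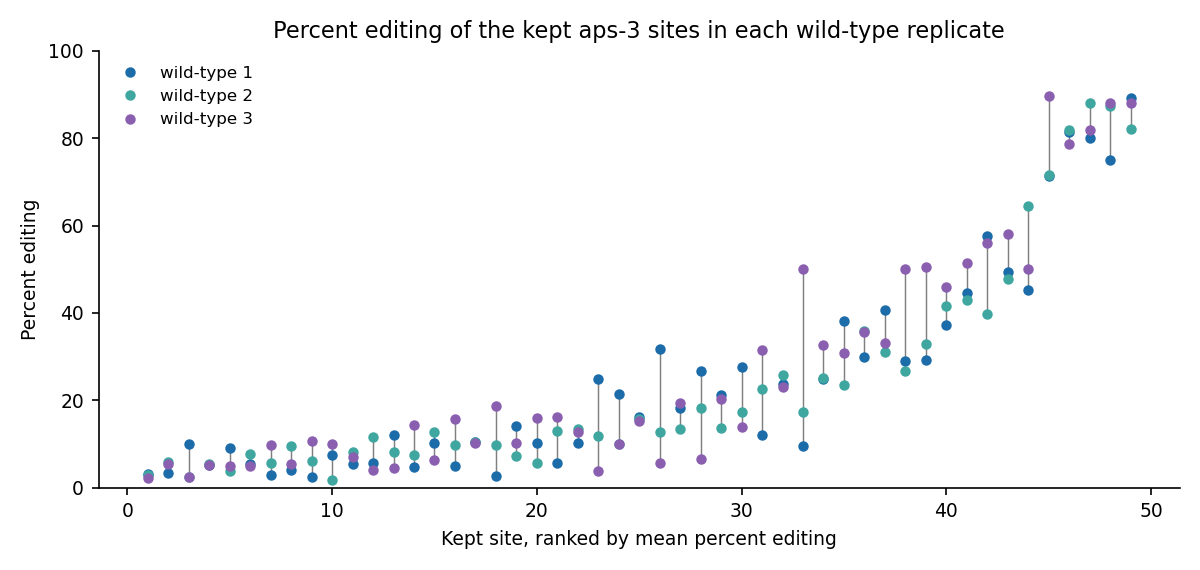
Percent editing (vertical axis) of each of the 49 kept aps-3 sites, ranked by their mean (horizontal axis), in the 3 wild-type replicates (colored points), with a grey line from the lowest to the highest replicate. The 5 highest sites lie above 70% in every replicate, and the widest spread is 40.3 percentage points.

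A site could also miss the list through 1 replicate. There were 121 positions at the confidence minimum in at least 1 wild-type replicate, of which 32 passed in 1 replicate, 21 in 2 and 68 in all 3. For the 21, the missing replicate was 1 in 10 cases and 3 in 11, and never the deepest, replicate 2. The position was not listed there in 13 cases, was under the minimum in 5 and was fully edited in 3, and 14 of the 21 were edited in under 10% of reads in every replicate that listed them. The 3 fully edited cases were high: position 1155174, at 228 nt, had 97.9%, 96.8% and 100% (132 of 132 reads), position 1154823 had 74.2%, 78.0% and 100% (9 of 9 reads) and position 1154840 had 67.7%, 66.7% and 100% (8 of 8 reads).

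Among the 10 genes with the most kept sites, aps-3 had the lowest mean percent editing. eif-2alpha, which encodes a translation initiation factor subunit, followed at 26.6% ± 0.926 (42 sites) and Y54E10A.6 at 27.6% ± 1.15 (48 sites), and the replicates of aps-3 and of these 2 genes overlapped. The mean was 30.0% ± 1.87 for gmn-1 (geminin, a regulator of DNA replication licensing), 30.1% ± 2.18 for algn-7, 32.3% ± 0.817 for Y54E10BR.2, 32.6% ± 0.375 for Y92H12BL.1, 32.8% ± 2.31 for WBGene00018862, 34.2% ± 0.706 for eif-4A3 (an RNA helicase of the exon junction complex) and 37.7% ± 1.70 for mdt-17 (a Mediator subunit). All 3 aps-3 replicates were below all replicates of these 7 genes. Of the 28 genes with at least 10 sites, 7 had a lower mean than aps-3. The order depends on the removal step: aps-3 had a mean of 32% ± 1.09 over its 68 positions with none removed.

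**Figure D4:**
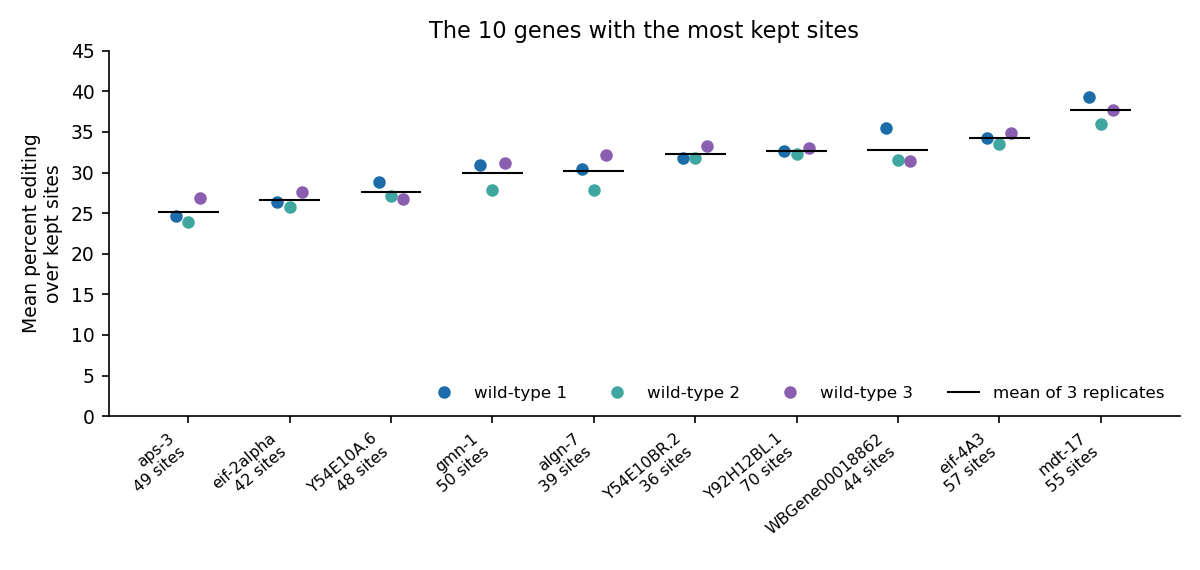
Mean percent editing over the kept sites (vertical axis) of the 10 genes with the most kept sites (horizontal axis, with the number of sites) in each wild-type replicate (points), with the mean of the 3 replicates (bars). The aps-3 replicates lie at 23.9% to 26.9%, the lowest mean of the 10.

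The aps-3 mRNA level was next compared between genotypes, to ask whether a transcript edited in wild-type differed in abundance where the editing enzyme was lost. Wild-type replicates 1 to 3 had normalized counts of 4806, 4822 and 4841, against 4904, 4232 and 4502 for adr-2(-) replicates 1 to 3. The groups overlapped, since adr-2(-) replicate 1 was the highest of all 6 libraries and the other two were the lowest. These values rested on 4568, 9986 and 5003 recovered reads for wild-type, against 3862, 3120 and 3917 for adr-2(-). The means were 4823 ± 17.3 and 4546 ± 338 (SD, n = 3 each), a log2 fold change of -0.088 (SE 0.068, 95% interval -0.24 to 0.065) on the log2(normalized count + 1) scale, or 0.941-fold (0.846 to 1.05). The difference did not pass (limma with Benjamini-Hochberg adjustment over 9779 genes, adjusted p = 0.63), where 29 genes (0.297%) did, the call requiring an adjusted p no higher than 0.05 and an absolute log2 fold change no lower than 0.5. An exact permutation test on the single value, two-sided, gave p = 0.40, and 0.10 is the smallest p that 3 against 3 libraries allow. In bulk samples, fewer cells of a type and less RNA per cell cannot be told apart.

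DESeq2 on the recovered reads gave a log2 fold change of -0.085 for aps-3 (adjusted p = 0.76), with 1.31% of genes called, and edgeR gave -0.084 (adjusted p = 0.62), with 0.199% called. Without adr-2(-) replicate 1, the library with high markers of other tissues, the limma log2 fold change of aps-3 was -0.14 (adjusted p = 0.50). The interval of the full comparison leaves out changes as large as the 0.5 set for calling. adr-2 itself had a log2 fold change of -6.15 (adjusted p = 5.4e-06).

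aps-3 was a well-expressed germline transcript. Its wild-type normalized count was above that of 75.2% of the genes tested, and per kb of exon it was 3288 in wild-type, above 77.9% of them, against 3099 in adr-2(-). The coefficient of variation of the 3 wild-type values was 0.360%, against a median of 4.62% over 2718 genes of 0.5 to 2 times its level, and in adr-2(-) it was 7.44% against a median of 6.02%. With 3 libraries per group these spreads are themselves imprecise.

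Of its partners in AP-3, apd-3 and apm-3 were measured, and apb-3 was not analysed here. apd-3, the delta large subunit, had normalized counts of 10563, 10268 and 11161 (wild-type) against 9774, 10143 and 10919 (adr-2(-)), a log2 fold change of -0.054 (limma adjusted p = 0.78). apm-3, the medium subunit, had 156, 240 and 217 (wild-type) against 201, 270 and 248 (adr-2(-)), a log2 fold change of 0.24 (adjusted p = 0.67). Without adr-2(-) replicate 1 the limma log2 fold changes were -0.018 for apd-3 (adjusted p = 0.95) and 0.36 for apm-3 (adjusted p = 0.61). The groups overlapped for both genes. Per kb of exon in wild-type, the normalized counts were 3288 for aps-3, 2583 for apd-3 and 145 for apm-3, so the medium subunit was far lower than the other measured subunits.

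**Figure D5:**
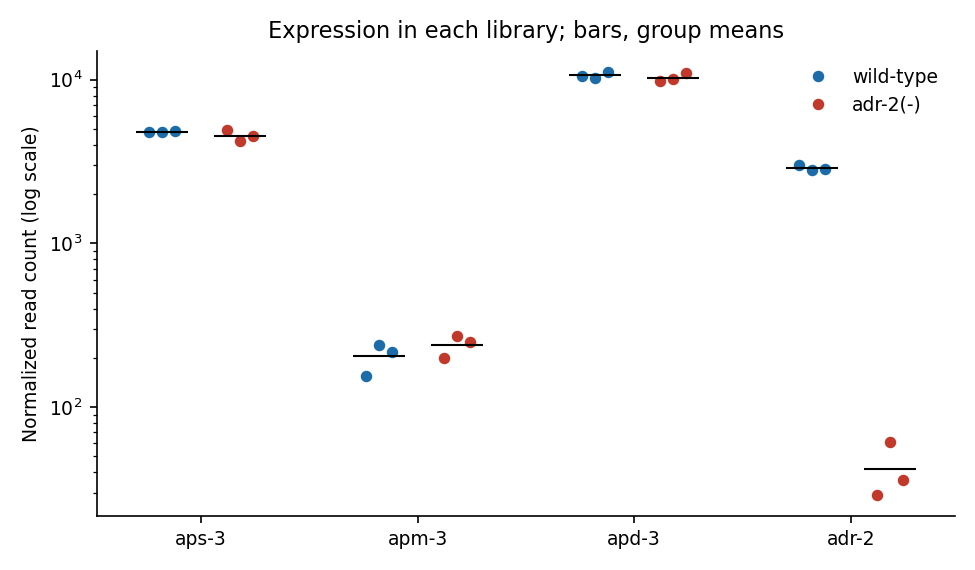
Normalized read counts (vertical axis, log scale) of the measured AP-3 subunits aps-3, apm-3 and apd-3 and of adr-2 in each of the 3 wild-type and 3 adr-2(-) libraries (points), with group means (bars). The groups overlap for the 3 AP-3 subunits, while adr-2 lies at 2822 or higher in wild-type and at 61.0 or lower in adr-2(-).

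The wider trafficking machinery gave no called gene either. There were 31 genes in 4 lists (AP-3, AP-1 and AP-2, lysosome-related organelle and HOPS tethering genes, and clathrin with Arf GTPases). Of these, 25 were tested and none passed with limma, DESeq2 or edgeR, against 0.297%, 1.31% and 0.199% of all genes tested. With shares this low, the absence of a call among 25 genes says little about the lists. At an unadjusted limma p under 0.05 there was 1, against 1227 of 9779 genes tested. Their median log2 fold change was -0.024, against 0.0046 for all genes tested, with a range of -0.18 to 0.42. The upper end was apm-1, a medium subunit of AP-1, with 34.7, 47.8 and 25.2 normalized counts (wild-type) against 105.4, 31.2 and 31.03 (adr-2(-)), and so rested on adr-2(-) replicate 1 alone, the library with high markers of other tissues. Without that library apm-1 had a log2 fold change of -0.15 (limma adjusted p = 0.93). The 25 genes then had a median of 0.0070 and a range of -0.19 to 0.36, against a median of -0.0032 for all 9502 genes tested. None of the 25 was called, against 37 of all genes, and none had an unadjusted limma p under 0.05, against 988. By list, with all 6 libraries, the median was -0.042 for the 8 AP-1 and AP-2 genes, 0.0023 for the 11 tested genes of the lysosome-related organelle and HOPS list and -0.024 for the 3 tested clathrin and Arf genes.

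The gene with the unadjusted p under 0.05 was blos-1, which encodes a subunit of BLOC-1, a complex in lysosome-related organelle formation. It had 1738, 1658 and 1867 normalized counts (wild-type) against 1563, 1500 and 1564 (adr-2(-)), a log2 fold change of -0.18 (limma adjusted p = 0.36). It was also the only 1 of the 25 whose groups did not overlap, against 18.8% of all genes tested. aps-1, the small subunit of AP-1, had 2649, 2728 and 3037 (wild-type) against 2102, 2663 and 2729 (adr-2(-)), a log2 fold change of -0.17 (adjusted p = 0.54). aps-2, that of AP-2, was lower in level, at 153, 211 and 200 (wild-type) against 177, 195 and 207 (adr-2(-)), a log2 fold change of 0.048 (adjusted p = 0.94). The highest of the lists, clathrin heavy chain (chc-1), had 35526, 34958 and 38761 (wild-type) against 30946, 39577 and 37411 (adr-2(-)) (log2 fold change -0.024, adjusted p = 0.94). Without adr-2(-) replicate 1 the limma log2 fold changes were -0.19 for blos-1 (adjusted p = 0.49), -0.055 for aps-1 (0.87), 0.11 for aps-2 (0.90) and 0.081 for chc-1 (0.76), so the sign of chc-1 rested on that library. glo-1 and glo-3, which act in gut granule formation, were under the mean of 10 required for testing, at no more than 14.5 and 9.68 in any library.

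Around aps-3, znf-236 had a log2 fold change of -0.023 (limma adjusted p = 0.94), and the ncRNA genes Y48G8AL.17 and Y48G8AL.18 had at most 7 and 2 reads in any library. rpl-17, a gene for a large ribosomal subunit protein on the opposite strand that starts 558 nt upstream, had 130455, 120525 and 119066 normalized counts (wild-type) against 95742, 118747 and 88775 (adr-2(-)). Its groups did not overlap, and its log2 fold change was -0.30 (adjusted p = 0.33), which did not pass. Without adr-2(-) replicate 1 it was -0.26 (adjusted p = 0.48), and znf-236 was at 0.064 (adjusted p = 0.80). The genes whose profile over the 6 libraries was most like that of aps-3, by Pearson r of log2(normalized count + 1) among 9778 genes, were anr-35 (0.99), nhr-69 (0.987), W09G10.9 (0.977), thoc-7 (0.976) and C48B6.2 (0.975). With 6 points and 21 genes above 0.95, these are a description.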

How the data were processed

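Poly(A) RNA of dissected germlines (3 wild-type and 3 adr-2(-) libraries) had been sequenced, aligned by the authors to WS275 with STAR 2.7.10b, and screened for editing with SAILOR, whose version is not given in the sources used here. The deposited site lists hold coverage, an edited share and a confidence score per position. The score matched the tail above 1% of a beta distribution of edited and unedited reads at every position not fully edited, within 0.0001. The adr-2(-) list is merged over its libraries. The deposited expression values are a signal: read counts that the authors divided by size factors. Whole reads were recovered for 100% of values (tolerance 0.01). Reads on genes ranged from 33658937 to 96397215 per library. Columns with the authors' DESeq2 comparison (fold changes and p-values) were not used.

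Edited reads are share times coverage. Expression was fitted with limma 3.58.1 (trend) in R 4.3.3 on log2(normalized count + 1) over genes with a mean of at least 10, since the values were normalized. DESeq2 1.42.0 and edgeR 4.0.16 were run on recovered reads. Site tests used Python 3.11.15, NumPy 2.4.6, pandas 2.3.3 and SciPy 1.17.1, and plots Matplotlib 3.10.9. Scripts were tested on simulated data. Gene models came from the WBcel235 annotation, the assembly of WS275. The study calls the replicates biological, while the labels do not say that they came from separate cultures. The p-values for expression measure the spread between these samples. Those of Fisher's exact test reflect only the counting of reads in 2 libraries.

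Named genes were aps-3, adr-2, members of the 4 lists, neighbouring genes, the 10 genes with the most sites and the 5 most similar profiles. Named sites were the 5 highest and 5 lowest, the removed positions (summarised) and the 5 largest replicate differences. Fully edited positions, positions near the minimum and adjacent pairs were named after their values were seen. The gene, sites and lists were chosen with earlier results of these data known. The names arf-1.1, arf-1.2, arf-3 and opt-2 matched no row and apb-3 was not analysed here. Base context and inverted repeats were not examined, because no genome sequence was used here.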

Additional observations from a re-analysis of the deposited data

Results flagged for a closer look

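Among the aps-3 positions listed in all 3 wild-type replicates, 4 carried high editing in reads that the kept sites do not use, because a position with every read edited has a confidence of 0. Position 1154712 was edited in 100% of reads in all 3 wild-type replicates, against 0.153% in adr-2(-). Position 1155174 had a mean of 98.2% over the 3 replicates, position 1154823 a mean of 84.0% and position 1154840 a mean of 78.1%. None of the last 3 was listed for adr-2(-), whose depth at these positions is therefore unknown. The difference from adr-2(-) was not tested, and genomic DNA was not analysed here. A further 4 positions with every read edited in at least 1 replicate, all in the stretch of low depth, were listed in fewer replicates.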

How the results depend on the processing

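The number of kept aps-3 sites (49) stayed within 1.5 times under every alternative run, from 46 with at least 20 reads in every replicate to 70 with 2 of 3 replicates required, and was 49 to 60 without 1 wild-type replicate. The mean percent editing (25.1%) moved by more than its SD with a confidence of at least 0.5 (23.6%), over summed reads (23%) and as a median over sites (15.1%), and ranged from 21.8% to 26.0% without 1 replicate, with the lowest without replicate 1. Alternatives chosen after seeing the data gave 32.1% with only adr-2(-) calls at the minimum removed, 32% with none removed and 28.7% with fully edited positions counted as passing, which also gave 52 sites. At an adjusted p of at most 0.01, 3, 8 and 4 sites differed between replicates 1 and 2, 1 and 3, and 2 and 3, in place of 12, 14 and 7. aps-3 expression stayed negative and uncalled under every alternative run (log2 fold change -0.14 to -0.038, adjusted p 0.50 to 0.83). No list gene was called under any of these, where 8 to 127 of all genes were called. TMM scaling shifted the median log2 ratio of group means over the genes tested by -0.018. Deviations of same-numbered samples correlated at -0.11, -0.21 and 0.21, and those of differently numbered samples at -0.28 to 0.32. No pairing by replicate number was therefore seen, but with 3 samples per group these values cannot tell whether same-numbered samples were collected together. With the replicate block, limma gave aps-3 a log2 fold change of -0.088 (adjusted p = 0.63), 25 genes were called in place of 29, and no list gene was called. The alternatives for base context were not run, because no genome sequence was used here. Sites with few reads, down to 8 in replicate 3, and the stretch with at most 22 reads at its listed positions limit what can be seen between the 2 groups of sites.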
